A study of Mus musculus with 12 samples.

Results

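The genes described are 9 hepatic transporters of bile acids and other organic anions: Slc10a1, Slco1a1, Slco1a4, Slco1b2, Slco2a1, Slco2b1, Abcb11, Abcb4 and Slc51b. They were taken by name from the 24062 genes of the count tables, and all 9 were present. On the diet with BIBB-515, Slco1a4 was 2.71 times its control level and Slco1a1 was 0.315 times its control level, both with no overlap between the mice of the 2 diets. None of the other 6 transporters tested passed the threshold, and Slc51b was too low to be tested. Both called genes encode uptake carriers and lie 51109 bases apart on chromosome 6.

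Bile acids circulate between intestine and liver. Hepatocytes take them up from portal blood through Ntcp, the sodium-dependent carrier encoded by Slc10a1, and through the sodium-independent organic anion transporting polypeptides, the Oatp proteins encoded by Slco genes, which also carry bilirubin, steroid conjugates, thyroid hormones and many drugs. Across the canalicular membrane, the bile salt export pump encoded by Abcb11 secretes bile salts into bile, while the floppase encoded by Abcb4 moves phosphatidylcholine there to form mixed micelles. Slc51b encodes the beta subunit of the heteromeric organic solute transporter, which returns bile acids to blood and is known best from the ileum.

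Liver RNA was sequenced from 12 female C57BL/6J mice, 6 fed a control diet and 6 fed the matched diet with BIBB-515, a compound that inhibits lanosterol synthase, an enzyme of cholesterol synthesis encoded by Lss. The mice were obtained at 6 weeks of age and acclimated before the experiment, so they were older than 6 weeks when dosing began. All received the control diet for 3 days before the start, and those on the drug received 55 mg/kg of body weight for 10 days. The labels number the control mice 1 to 6 and the BIBB-515 mice 6 to 11, and give neither a batch nor the cage of a mouse, although animals shared cages. The comparison asks which transporter messages differ between livers with and without the inhibitor, and it rests on 1 dose, 1 time point and 1 sex.

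Libraries held between 22764819 and 31058370 counted reads, with a median of 26006488.5. Of 12481 genes with enough reads to be tested, 1705 passed a false discovery rate (FDR) of 0.05 in edgeR's quasi-likelihood test, 896 of them higher and 809 lower with BIBB-515. This background of 13.7% called (7.18% higher, 6.48% lower) is the share against which the counts of transporters are read. The hepatocyte markers Alb, Apoa1, Ttr, Serpina1e, Cps1 and Hnf4a were read in every library, Alb at the highest level and Serpina1e at the lowest on the BIBB-515 diet (44.15 ± 14.3 CPM, SD, n = 6). Their summed level was 137000 to 153000 CPM (read counts scaled by TMM to a common library size) in control mice and 102000 to 117000 CPM in BIBB-515 mice, and 3 of the 6, Alb, Ttr and Serpina1e, passed the FDR threshold as lower. Most of this sum was Alb, at 120100 ± 6000 CPM in control and 90920 ± 5660 CPM in BIBB-515 mice (SD, n = 6 per diet). Apoa1, Cps1 and Hnf4a did not pass (edgeR FDR 0.128, 0.769 and 0.368), so the list did not fall as a whole. In bulk tissue, fewer cells of a type and less RNA per cell cannot be told apart.

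The 250 bases before the RefSeq start are printed for 4 of the genes: Slco1a4 and Slco1a1, because they were the 2 called, Slco1b2, because it is their neighbour, and Abcb11, because its promoter is known for a response to bile acids. The windows are, on GRCm38.p6 (mm10) and given 5′ to 3′ along the gene, chr6:141856221-141856470 on the minus strand for Slco1a4, chr6:141946963-141947212 on the minus strand for Slco1a1, chr6:141629268-141629517 on the plus strand for Slco1b2 and chr2:69342617-69342866 on the minus strand for Abcb11. Capitals mark nuclear receptor half-sites (the hexamer AGGTCA or its variants, which are AGTTCA as well as GGGTCA and also GGTTCA, on either strand) and inverted repeats of AGGTCA with 1 base between them, allowing 1 mismatch.
Slco1a4: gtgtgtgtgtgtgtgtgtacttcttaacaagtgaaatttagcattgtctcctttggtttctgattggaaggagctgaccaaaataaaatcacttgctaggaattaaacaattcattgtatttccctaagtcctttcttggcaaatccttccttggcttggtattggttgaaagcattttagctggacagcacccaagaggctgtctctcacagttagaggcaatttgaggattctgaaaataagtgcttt
Slco1a1: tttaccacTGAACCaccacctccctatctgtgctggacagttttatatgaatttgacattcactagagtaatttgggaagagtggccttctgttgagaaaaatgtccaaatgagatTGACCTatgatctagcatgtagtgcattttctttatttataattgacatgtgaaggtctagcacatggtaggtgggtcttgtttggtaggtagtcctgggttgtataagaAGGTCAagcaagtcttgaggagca
Slco1b2: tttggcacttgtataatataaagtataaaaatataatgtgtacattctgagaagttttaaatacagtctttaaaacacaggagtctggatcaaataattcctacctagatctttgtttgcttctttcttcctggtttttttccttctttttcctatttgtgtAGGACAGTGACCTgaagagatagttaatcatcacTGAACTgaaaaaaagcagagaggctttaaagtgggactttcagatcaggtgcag
Abcb11: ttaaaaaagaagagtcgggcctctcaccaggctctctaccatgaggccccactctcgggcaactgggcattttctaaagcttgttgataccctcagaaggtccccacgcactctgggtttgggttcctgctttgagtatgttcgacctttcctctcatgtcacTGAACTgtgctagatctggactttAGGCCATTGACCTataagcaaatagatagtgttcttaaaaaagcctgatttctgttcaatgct

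The printed windows of Slco1a4 and Slco1a1 had little sequence in common, with a longest shared run of 9 bases. That of Slco1a4 held none of the 4 half-sites and that of Slco1a1 held 3. Over 32851 RefSeq promoter windows of the same length, 38.6% held at least 1 half-site, as did 8 of the 12 windows of the transporters (Slco2b1 has 3 and Slc10a1 has 2). The inverted repeat with at most 1 mismatch occurred in 0.0791% of all windows and in 2 of the 12, from base -63 to base -51 of Abcb11 and from base -88 to base -76 of Slco1b2, counted back from the start. Allowing all 4 half-sites but no mismatch, neither this repeat nor direct repeats spaced by 1, 3 or 4 bases nor everted repeats spaced by 6 bases were in any of the 12. Such matches describe the letters of these windows and say nothing of what binds there.

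Among the 8 transporters tested, 1 was higher and 1 was lower, against the background of 13.7% called in either direction. Both calls were without overlap between 6 and 6 mice, as were 7.07% of all tested genes. The median log2 fold change of the 8 was -0.01, the same as the -0.01 over all tested genes. With so few genes the counts describe single genes and not the group. The plot of the level in each mouse shows that the separation between diets was present in Slco1a4 and Slco1a1 and in no other panel.

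**Figure D1:**
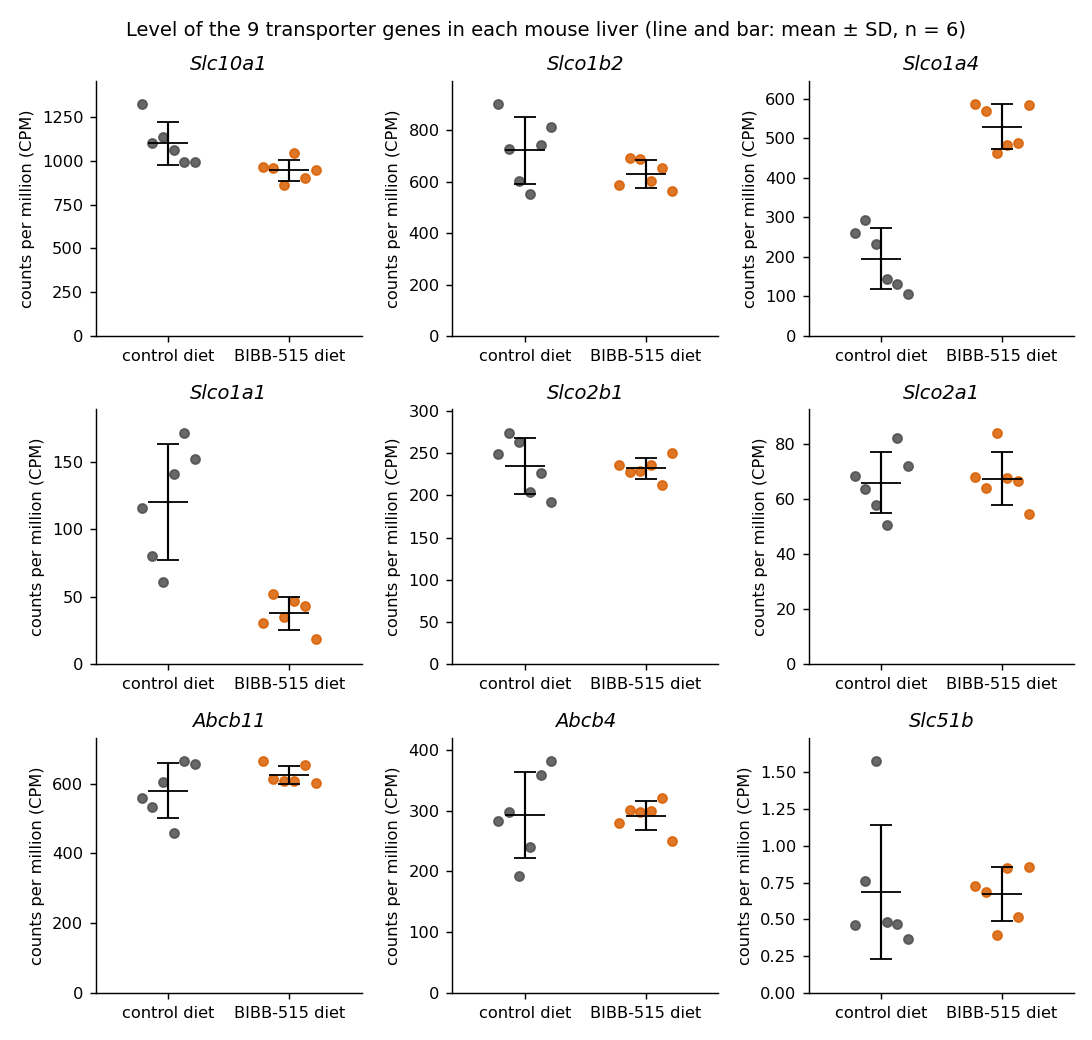
Level of each of the 9 transporter genes in CPM, with 1 point per mouse (n = 6 per diet) and the mean and SD in black, on axes that start at 0. For Slco1a4 every BIBB-515 mouse is above every control mouse, for Slco1a1 every one is below, and for the other 7 genes the diets overlap.

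Slco1a4 (chr6:141805440-141856171, minus strand), which encodes Oatp1a4, a carrier of the sinusoidal membrane that takes up bile acids and the cardiac glycoside digoxin, was the transporter that rose. Control mice had 106.0, 188.9 and 292.8 CPM as lowest, median and highest value, and BIBB-515 mice had 462.3, 528.7 and 585.7 CPM. The lowest BIBB-515 mouse was thus above the highest control mouse. The mean went from 194.9 ± 77.1 to 528.3 ± 56.7 CPM (SD, n = 6 per diet), a log2 fold change of 1.44 with a 95% interval from 0.98 to 1.90. It passed the threshold in edgeR's test (SE 0.22, FDR 0.00063), and the exact permutation test (two-sided, unadjusted) gave p = 0.00216, the smallest that 6 against 6 mice allow.

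Slco1a1 (chr6:141907281-141946962, minus strand), which encodes Oatp1a1, a broad carrier of bile acids and conjugated steroids, fell. In control mice its lowest, median and highest levels were 60.99, 128.7 and 171.7 CPM, against 18.82, 39.49 and 52.54 CPM in BIBB-515 mice. Each BIBB-515 mouse was below all 6 control mice. The mean went from 120.5 ± 43.0 to 37.9 ± 12.3 CPM (SD, n = 6 per diet), a log2 fold change of -1.67 with a 95% interval from -2.23 to -1.10. The difference passed the threshold in edgeR (SE 0.26, FDR 0.000971), and the exact permutation p was again 0.00216.

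Slco1a4 and Slco1a1 are paralogs that lie 51109 bases apart in a run of Slco1 genes on chromosome 6. Picked by symbol, this run holds Slco1c1, Slco1b2, Slco1a4, Slco1a1, Slco1a6 and Slco1a5 in order of position. Genes of other symbols that may lie between them were not looked for. Slco1c1, Slco1a6 and Slco1a5 had 0 to 2 reads in each library and were not tested. Of the 3 listed genes of the run that were tested, 1 rose, 1 fell and Slco1b2 did not pass the threshold.

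Because paralogs can trade reads, the sequence they share was counted. Of the 50-base words in their transcripts, 1.64% of those of Slco1a1 and 1.61% of those of Slco1a4 also occurred in another gene, and 84 words were common to both. Slco1b2 had no shared word. The deposited counts leave out reads that align to several places, and a second set of tables counting primary alignments gave the same totals to within 2 reads for both paralogs (24015 and 24017 reads for Slco1a1, 118394 and 118395 for Slco1a4, summed over 12 mice).

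The change ran along both genes. In the exon tables, all 16 entries of Slco1a4 with enough reads were higher in every BIBB-515 mouse than in any control mouse, with log2 ratios of mean CPM from 1.36 to 1.59. All 14 entries of Slco1a1 had a negative ratio, from -1.92 to -1.32, and 12 of them were lower in every BIBB-515 mouse. For the other 2, entries 6 and 7, single mice overlapped. Exon entries of one gene share reads and mice, so they are not separate evidence of the change.

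**Figure D2:**
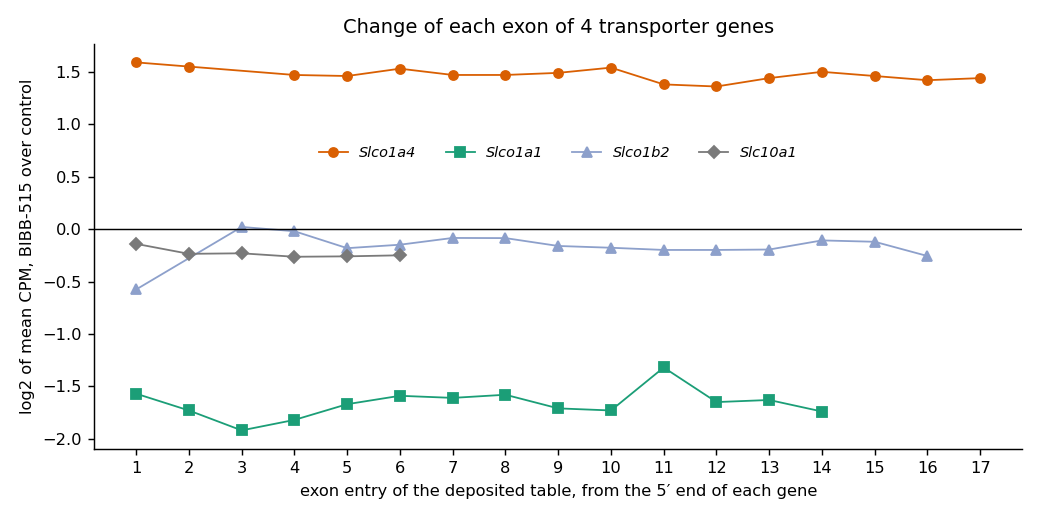
Log2 ratio of mean CPM, BIBB-515 over control diet, for each exon entry of Slco1a4, Slco1a1, Slco1b2 and Slc10a1 with at least 20 reads in the mean of both diets, ordered from the 5′ end. Slco1a4 stays between 1.36 and 1.59 along the gene, Slco1a1 between -1.92 and -1.32, while Slc10a1 lies between -0.26 and -0.14 and Slco1b2 between -0.58 (entry 1) and 0.02.

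Slc10a1 (chr12:80953185-80968079, minus strand), the gene of the sodium-dependent carrier Ntcp, had the highest level of the 9 per kilobase and did not pass the threshold. The lowest, median and highest control levels were 991.1, 1081 and 1323 CPM, and those of BIBB-515 mice were 863.2, 950.9 and 1043 CPM. All 6 BIBB-515 mice were below the control mean, yet 1 of them, at 1043 CPM, was above 2 of the control mice. The means were 1101 ± 123 and 945.7 ± 61.6 CPM (SD, n = 6 per diet), with a log2 fold change of -0.22, a 95% interval from -0.39 to -0.04 and an edgeR FDR of 0.0894. The exact permutation test, not adjusted for the 9 genes examined, gave p = 0.013. DESeq2 gave an adjusted p of 0.0371, so the call depends on the tool. All 6 exon entries of Slc10a1 had a negative log2 ratio, between -0.26 and -0.14.

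Slco1b2 (chr6:141629518-141686635, plus strand), which encodes the liver-restricted Oatp1b2, a carrier of unconjugated bile acids, bilirubin and statins, came next by level per kilobase. Control mice ranged from 552.4 to 900.9 CPM with a median of 734.0, and BIBB-515 mice from 563.6 to 691.0 CPM with a median of 626.5. The BIBB-515 mice lay wholly inside the control range and all below the control mean. The log2 fold change was -0.20 with a 95% interval from -0.43 to 0.04 (edgeR FDR 0.259, exact permutation p = 0.165). Of its 15 exon entries with enough reads, 14 had a negative log2 ratio and 1 a positive one, from -0.58 at the short first entry, with a mean of 51 reads on the control diet, to 0.02, and the diets overlapped in all 15.

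Slco2b1 and Slco2a1 showed the smallest differences among the Slco genes. Slco2b1 (chr7:99657804-99711340, minus strand), which encodes Oatp2b1, a carrier of steroid sulfates, had 192.5, 238.2 and 274.3 CPM as lowest, median and highest control value and 212.8, 232.4 and 249.9 CPM in BIBB-515 mice, which lay within the control range. Its log2 fold change was -0.02 with a 95% interval from -0.21 to 0.17 (edgeR FDR 0.914).

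RefSeq gives Slco2b1 3 starts, and the first 3 exon entries of the tables begin there. The first, most distant entry had a mean of 0.6667 reads per library in control mice and 0.8333 in BIBB-515 mice, and the next had 9.833 and 9.5 reads. The third had 45.83 and 49.67 reads, with a log2 ratio of -0.04. The first 2 were thus at or near 0 on both diets, and no difference in the use of starts was detectable at this depth.

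Slco2a1 (chr9:103008489-103087849, plus strand), which encodes a prostaglandin carrier that is known from endothelial cells as well as other types, ranged from 50.65 to 82.13 CPM in control mice with a median of 66.12. BIBB-515 mice ranged from 54.46 to 84.05 CPM with a median of 66.94, and the diets overlapped almost fully. The log2 fold change was 0.03 with a 95% interval from -0.21 to 0.28 (edgeR FDR 0.873). None of 9 liver endothelial markers passed the threshold, and their summed level was 247 to 338 CPM in control mice and 226 to 310 CPM in BIBB-515 mice.

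The canalicular transporters did not pass the threshold either. Abcb11 (chr2:69238282-69342616, minus strand), the bile salt export pump, had a lowest, median and highest control level of 459.1, 583.0 and 663.5 CPM and of 601.5, 611.2 and 664.5 CPM with BIBB-515. All 6 BIBB-515 mice were above the control mean, inside or just beyond the upper part of the control range. The log2 fold change was 0.11 with a 95% interval from -0.08 to 0.30 (edgeR FDR 0.442, exact permutation p = 0.21). All 28 exon entries of Abcb11 had a positive log2 ratio, between 0.06 and 0.31, and in none were the diets separated.

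Abcb4 (chr5:8893721-8959226, plus strand), the phosphatidylcholine floppase, had 192.3, 290.3 and 381.4 CPM as lowest, median and highest control value and 250.0, 298.7 and 320.2 CPM with BIBB-515. The BIBB-515 values lay inside the control range and both means were close to 292 CPM. The log2 fold change was -0.0037 with a 95% interval from -0.30 to 0.29 (edgeR FDR 0.99). For Abcb11 and Abcb4 these intervals stay between -0.30 and 0.30 on the log2 scale, which does not show that there was no change.

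Slc51b (chr9:65412753-65422773, minus strand) had 9 to 36 reads per library on the control diet and 11 to 23 on BIBB-515, and it stayed below the filter of 1 CPM in at least 2 mice. The lowest, median and highest levels were 0.3634, 0.475 and 1.575 CPM in control mice and 0.3924, 0.7061 and 0.8574 CPM in BIBB-515 mice. The diets overlapped, and the control value of 1.575 CPM came from mouse 3 alone. Fitted without the filter on low counts, the log2 fold change was -0.02 with a 95% interval from -0.73 to 0.69 (edgeR FDR 0.977), so only a large change could have been seen at this depth. Its exons overlap those of Rasl12 on the opposite strand over 91 bases, and reads that touch both genes were left out of the gene counts. The tables that keep them held 293 reads for Slc51b over the 12 mice, against 212. Slc51a, the gene of the other subunit, had 0 to 3 reads per library.

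Levels of different genes were compared as CPM per kilobase of the length given in the tables. On the control diet the order was Slc10a1 at 523.7 ± 58.6 (SD, n = 6), Slco1b2 at 219.1 ± 39.3, Abcb11 at 118.4 ± 16.1, Abcb4 at 71.74 ± 17.4, Slco1a4 at 50.98 ± 20.2, Slco2b1 at 47.11 ± 6.6, Slco1a1 at 30.37 ± 10.8, Slco2a1 at 16.32 ± 2.74 and Slc51b at 1.405 ± 0.934 CPM per kilobase. The first 3 were each separated from the next in rank over all 6 control mice, and Slco2a1 was separated from Slc51b, while the neighbours from Abcb4 to Slco2a1 overlapped.

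On BIBB-515 the order by CPM per kilobase changed at 2 places. Slco1a4 moved from rank 5 to rank 3, at 138.2 ± 14.8 CPM per kilobase (SD, n = 6), where it overlapped Abcb11 at 127.7 ± 5.49. Slco1a1 moved from rank 7 to rank 8, at 9.554 ± 3.09, below Slco2a1 at 16.72 ± 2.37 with no overlap. All other neighbours in the BIBB-515 order were separated over the 6 mice.

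The opposite changes of Slco1a4 and Slco1a1 went with a different makeup of the Oatp messages. Slco1a4 and Slco1a1 added together rose from 81.35 ± 12.88 to 147.7 ± 13.95 CPM per kilobase (SD, n = 6 per diet), without overlap between diets. The summed level of Slco1a1, Slco1a4, Slco1b2 and Slco2b1 was 347.6 ± 48.2 CPM per kilobase in control mice and 385.6 ± 17.0 in BIBB-515 mice (SD, n = 6 per diet), and the diets overlapped. Slco2a1, with means of 16.32 in control and 16.72 CPM per kilobase in BIBB-515 mice, was left out of this sum. Within this sum Slco1a4 made up 7.9 to 20.6% in control mice and 31.5 to 40.3% in BIBB-515 mice, while Slco1a1 made up 4.94 to 12.6% and 1.25 to 3.2%. Both shares were without overlap. The shares, like the ratio given below, are computed from the levels already described and are not separate evidence.

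Slco1b2 remained the largest of the 4 in every mouse, with 58.5 to 70.1% in control mice and 45.2 to 54.3% in BIBB-515 mice, again without overlap. A share falls when another member of the sum rises, and the level of Slco1b2 itself overlapped between diets. Slco2b1 held 11.0 to 17.0% and 11.0 to 13.2%. The ratio of Slco1a4 to Slco1a1, per kilobase, was 0.722 to 3.97 with a median of 1.70 in control mice, and 10.7 to 32.1 with a median of 12.6 in BIBB-515 mice.

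**Figure D3:**
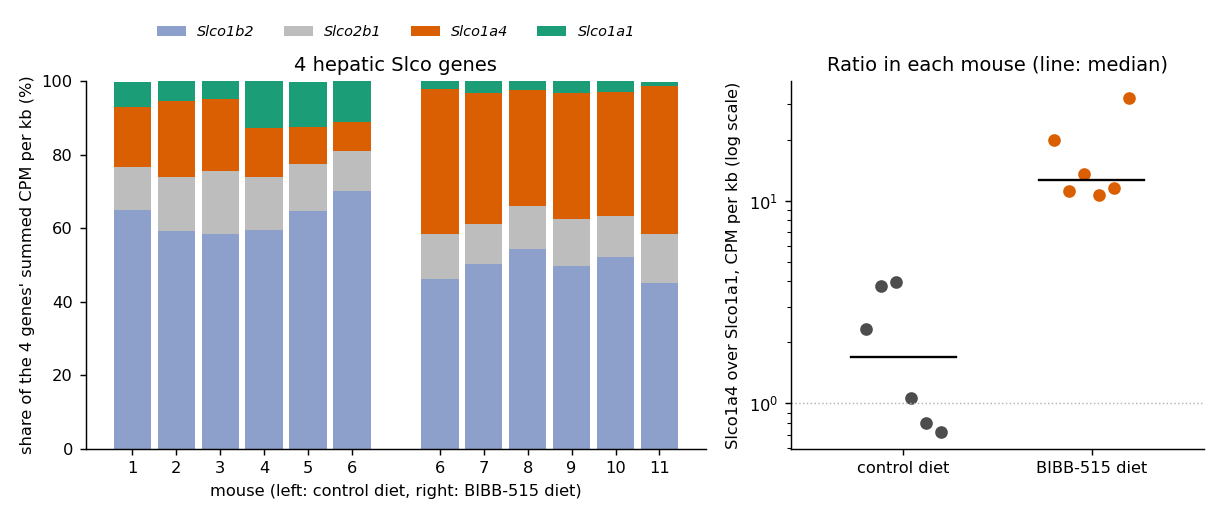
Left, share of Slco1b2, Slco2b1, Slco1a4 and Slco1a1 in their summed CPM per kilobase in each mouse (%, bars by mouse number). Right, ratio of Slco1a4 to Slco1a1 in CPM per kilobase on a log axis, 1 point per mouse with the median as a line; the control mice lie between 0.722 and 3.97 and the BIBB-515 mice between 10.7 and 32.1.

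Within the control diet, several transporters differed between mice 1 to 3 and mice 4 to 6. Control mice 1, 2 and 3 had 260.6, 292.8 and 233.3 CPM of Slco1a4, and control mice 4, 5 and 6 had 144.5, 132.1 and 106.0 CPM. Slco1a1 was ordered the other way, with 116.2, 80.24 and 60.99 CPM in mice 1 to 3 and 141.2, 171.7 and 152.5 CPM in mice 4 to 6. Slco2b1 had 249.6, 274.3 and 263.3 CPM in mice 1 to 3 and 203.5, 226.8 and 192.5 CPM in mice 4 to 6, and Slc10a1 had 1323, 1099 and 1136 CPM against 1063, 991.1 and 992.4 CPM. Mice 1 to 3 thus had more Slco1a4, Slco2b1 and Slc10a1 and less Slco1a1 than mice 4 to 6, with no overlap in these 4 genes, and the labels give nothing that sets these mice apart. This grouping was seen in the values and was not tested. The share of all tested genes that separate the same mice is not given, so the grouping is not shown to be particular to the transporters.

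For the other tested transporters too, the spread was wider between control mice than between BIBB-515 mice. The coefficient of variation was larger on the control diet for all 8 tested transporters, with a median of 17.4% against 8.37% on BIBB-515. The same held for 77.8% of all tested genes, with medians of 13.6% and 9.17%, so the wider spread of the control libraries was not limited to the transporters. For Slco1a4 the coefficient was 39.6% in control and 10.7% in BIBB-515 mice, and for Slco1a1 it was 35.7% and 32.4%.

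Of 28 other genes listed for transport of bile acids, organic anions, sterols and phospholipids, 18 were tested and 10 passed the threshold, 6 higher and 4 lower, against 13.7% of all tested genes. Their median log2 fold change was 0.01. This list was chosen with earlier results of these data known, so its share called is not evidence about such transporters as a group. The 4 with the lowest FDR were Abcc3, Abcg5, Abcg8 and Slc22a7. The other 6 called were Abcb1a, Abcc4 and Abcg2, all higher, and Atp8b1, Tmem30a and Slc10a5, all lower.

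Abcc3, which encodes the basolateral efflux pump Mrp3 for glucuronide conjugates and bile acids, had 136.5, 213.1 and 330.0 CPM as lowest, median and highest control value and 574.8, 701.3 and 838.2 CPM with BIBB-515. All BIBB-515 mice were above all control mice, with a log2 fold change of 1.70 (SE 0.18, edgeR FDR 3.07e-05). Abcg5 and Abcg8 encode the subunits of the canalicular sterol exporter. Abcg5 went from 134.9 ± 21.5 to 248.7 ± 29.4 CPM and Abcg8 from 177.4 ± 31.3 to 321.9 ± 32.4 CPM (SD, n = 6 per diet), both without overlap and with log2 fold changes of 0.88 and 0.86 (edgeR FDR 0.000102 and 0.000235).

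Slc22a7, the gene of the sinusoidal organic anion transporter Oat2, fell alongside Slco1a1. Its lowest, median and highest levels were 26.64, 43.29 and 61.29 CPM in control mice and 12.01, 17.65 and 22.71 CPM in BIBB-515 mice, with no overlap. The log2 fold change was -1.24 (SE 0.19, edgeR FDR 0.000801). Of the sinusoidal carriers named so far, those past the threshold therefore included both rises and falls.

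**Figure D4:**
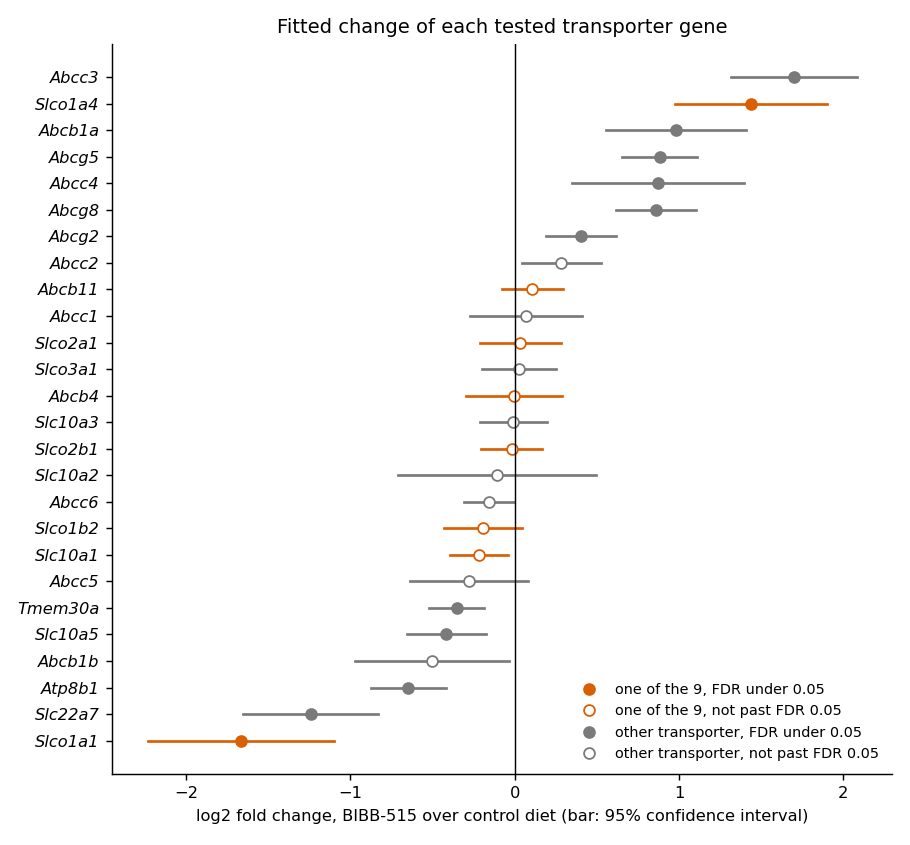
Fitted log2 fold change, BIBB-515 over control diet, with its 95% confidence interval for the 8 tested transporters among the 9 and for the 18 tested genes of the other list (n = 6 mice per diet). Slco1a4 at 1.44 stands next to Abcc3 at 1.70 at one end and Slco1a1 at -1.67 next to Slc22a7 at -1.24 at the other, while the remaining 6 of the 9 lie between -0.22 and 0.11.

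The receptors and enzymes that sense and make bile acids were counted from a list of 24 genes, of which 23 were tested. Of these, 4 (17.4%) passed the threshold, against 13.7% of all tested genes called in either direction. All 4 were higher, against 7.18% of all tested genes called higher. The median log2 fold change of the list was 0.00064. This list too was chosen with earlier results of these data known, so its counts describe single genes and not the group. Cyp8b1, the sterol 12-alpha-hydroxylase that sets the share of cholic acid, rose from 260.3 ± 33.7 to 457.5 ± 57.4 CPM and Akr1d1, a steroid 5-beta-reductase, from 215.5 ± 25.1 to 339.5 ± 20.6 CPM (SD, n = 6 per diet). Their log2 fold changes were 0.81 and 0.66 (edgeR FDR 0.000156 and 0.000102), and neither overlapped between diets. Acox2, a peroxisomal oxidase of bile acid side chains, and Cyp7b1, the oxysterol 7-alpha-hydroxylase, rose by 0.39 and 0.63 on the log2 scale (edgeR FDR 0.00187 and 0.0032).

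A further 5 genes of that list are named for their role, chosen after their values were seen. Nr1h4, the bile acid receptor Fxr, had 145.2 ± 20.8 and 139.2 ± 9.1 CPM, and its target Nr0b2 had 12.01 ± 3.5 and 12.42 ± 2.83 CPM (SD, n = 6 per diet). Neither passed the threshold (edgeR FDR 0.694 and 0.898). Cyp7a1, the rate-limiting enzyme of bile acid synthesis, had 177.1 ± 89.0 and 128.8 ± 46.9 CPM with a log2 fold change of -0.46 (edgeR FDR 0.363). The xenobiotic receptors Nr1i2, known as Pxr, and Nr1i3, known as Car, had log2 fold changes of 0.29 and 0.02 (edgeR FDR 0.0658 and 0.929). Other genes of the list that fell just short of the threshold went both ways. Scp2, Klb and Fgfr4 had log2 fold changes of -0.35, -0.41 and -0.23 (edgeR FDR 0.0604, 0.0728 and 0.0765). Slc27a5 had 0.28 (edgeR FDR 0.0883).

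The genes whose level followed each called transporter most closely within the diets were ranked over 9513 tested genes with a mean of at least 5 CPM, by the correlation of log2 CPM after removal of the diet mean (12 mice). For Slco1a4 they were Cps1, with Pearson's r = 0.933 and Spearman's rho = 0.937, and Mccc1, with r = 0.919 and rho = 0.867. For Slco1a1 they were Tcf3, with r = 0.934 and rho = 0.944, and Hsd3b5, with r = 0.93 and rho = 0.895. These are the top of a ranking over the same 12 libraries and share their depth and scaling, and they are given as a description with no test. All 4 separated control mice 1 to 3 from control mice 4 to 6 without overlap. They were picked for following Slco1a4 or Slco1a1, which separate the same mice, so this is not further evidence of that grouping. Between diets, Cps1 and Tcf3 did not pass the threshold (edgeR FDR 0.769 and 0.878), Mccc1 was higher by 0.22 and Hsd3b5 had a log2 fold change of -1.89 (edgeR FDR 0.0493 and 0.0441).

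Among the transporters themselves, the same deviations gave 28 pairs with r from -0.712 to 0.889 (12 mice). The 4 pairs largest in size were Slco1a4 with Slco2b1 (r = 0.889, rho = 0.874), Slco1a1 with Slco2b1 (r = -0.712, rho = -0.769), Slco1a1 with Abcb4 (r = 0.703, rho = 0.629) and Slco1b2 with Slco2a1 (r = 0.70, rho = 0.685). The called pair, Slco1a4 with Slco1a1, had r = -0.632 and rho = -0.692. All are descriptions over shared libraries and scaling. Slco1a4, Slco1a1 and Slco2b1 each separated control mice 1 to 3 from control mice 4 to 6, so the values for these genes take in that difference, and whether they vary together within such sets of 3 mice cannot be tested.

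Markers of other liver cells were read beside these changes. None of 6 tested cholangiocyte markers passed the threshold, at a summed 64.6 to 120 CPM in control and 95.5 to 159 CPM in BIBB-515 mice, with Cftr under 1 CPM throughout. None of 6 Kupffer cell markers did, at 367 to 611 and 379 to 632 CPM. Of 6 stellate cell markers, Lrat and Dcn were lower, and the summed level was 487 to 607 and 456 to 514 CPM. Of the fat markers, Adipoq, Plin1 and Lep were under 1 CPM in every library and neither of the 2 tested passed. Of the blood markers the 4 globin genes were listed at 0 and Alas2 did not pass. Alas2 was read at 12.4 ± 2.42 CPM in control and 11.1 ± 1.84 CPM in BIBB-515 mice (SD, n = 6 per diet). The counts leave out reads on several places or genes, so the globin values do not show that blood RNA was absent. Why they were 0 was not tested. The part of the lower hepatocyte and stellate markers in the transporter results was not tested.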

How the data were processed

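Liver RNA-seq libraries of 12 mice, 6 per diet, were grouped by their labels. The authors deposited whole-number counts of reads per gene, per the file headers made with featureCounts 1.6.3 over exons, without strand and without reads on several places or genes. The submitters' processing notes also name STAR 2.5.3a and mm10. The library kit and the test used on these libraries are not given in the sources used here. Depth was 22764819 to 31058370 reads. Labels do not say that mice were pooled.

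Genes reaching 1 CPM in 2 or more mice were normalized by TMM and tested with edgeR 4.0.16 (quasi-likelihood, R 4.3.3, Benjamini-Hochberg over all tested genes), and the code was tested on simulated data. Single genes were also compared by a two-sided exact permutation test of mean log2 CPM. The deposited tables of counts per exon (a read is counted in each exon it touches) and of primary alignments served for the exon ratios, with at least 20 reads in the mean of both diets, and as alternatives; the transcript tables were not used. Promoter letters are from RefSeq (GRCm38.p6), where all 9 genes matched, and shared words from GENCODE transcripts of the same build. Lowest chi-square per degree of freedom between 2 libraries of 1 diet was 13.4, so none was a copy. Alternatives were DESeq2 1.42.0, limma 3.58.1 (voom), upper-quartile scaling, 2 other filters, the primary-alignment tables, 1 surrogate variable (sva 3.50.0) and leaving out each mouse.

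The 9 genes, the lists and the motifs were chosen with earlier results of these data known. Named by rule besides the 9 were the up to 4 genes of lowest FDR past 0.05 in each of 2 lists, and the 2 genes most correlated with each called transporter. Outside this rule, the other called genes of the transporter list, Slc51a and genes of the sensing and synthesis list that were not called were named with their values known. The cell type markers were named as lists. The marker named Adgre1 was not found in the tables under that symbol.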

Additional observations from a re-analysis of the deposited data

Results flagged for a closer look

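Of 44 sets of 6 mice examined for a single mouse far from the rest (the 9 transporters, the other genes named by rule and the library totals, on each diet), 1 stood out, where chance alone gives about 2.2. Control mouse 3 had 1.575 CPM of Slc51b and the nearest control mouse had 0.76 CPM, a gap of 0.673 of the whole control range. Slc51b had at most 36 reads in a library and was kept out of the main test by the filter on low counts.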

How the results depend on the processing

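Slco1a4 and Slco1a1 passed the threshold in the 7 other fits and in all 12 fits that left out a mouse, with log2 fold changes of 1.32 to 1.59 and -1.79 to -1.53 when a mouse was left out and FDR values of at most 0.00207 and 0.00351. Their sums over the exon tables kept the direction. No other transporter was called when a mouse was left out. Slc10a1 was called by DESeq2 alone (adjusted p = 0.0371), and over the other fits and the fits without a mouse its adjusted p reached 0.157 and 0.178 at most. No fit gave a called transporter the opposite sign. The list counts and exon sums among the 236 recomputed values could not reverse a call by the rule used. Abcb4, Slco2a1 and Slco2b1, which no fit called, changed sign between fits, with log2 fold changes between -0.09 and 0.12. The count of transporters called was 3 with DESeq2 and 2 in every other fit. The count of all tested genes called was 1199 to 1865 when a mouse was left out, and that of the other transporters 8 to 11. Of the bile acid sensing and synthesis genes, 4 passed, against 8 with DESeq2, 7 with 1 surrogate variable and 4 to 7 with a mouse left out, where 7 came without control mouse 2; the cause was not tested. The median log2 fold change of all genes shifted by less than 0.1 under every scaling. No paired analysis was made because the labels give no pairing of mice between the diets. Counts of under 40 reads limit Slc51b.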
